A study of Mus musculus with 2 samples.

Results

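Enteroendocrine lineage cells, the hormone-producing cells of the gut epithelium together with their Neurog3-positive progenitors, were chosen by the summed counts of 4 marker genes in single-cell RNA-seq data from mouse distal small intestinal organoids. A barcode was a member when it had at least 500 detected genes and at most 25% mitochondrial counts, and when Chga, Chgb, Neurod1 and Neurog3 together reached 10 per 10000 of its counts. The rule took 133 of 2725 filtered cells (4.88%), whether or not a hashtag had been called for them. Since the members were selected on these counts, their marker levels and every difference between them and the other 2592 cells are descriptions and were not tested. The study pooled sorted, hashtagged cells of 5 organoid cultures, which the labels call biological replicates: 2 control cultures and 3 Etv1 mutant cultures. Reporters, Neurog3-RFP and Gcg-Venus, were present in all 5 cultures, controls included: fluorescent proteins that mark cells entering the endocrine lineage and cells that make proglucagon. The nature of the Etv1 mutation, the sort gate and the mice behind each culture are not given in the sources used here, and a share of lineage cells in sorted cells depends on the gate. Organoids are epithelial cultures without the nerves, vessels and stroma of the gut.

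Enteroendocrine cells arise from crypt progenitors that escape Notch signalling and switch on Neurog3, a basic helix-loop-helix transcription factor expressed for a short time. Neurod1 and further factors follow, and the cells fill dense-core granules with the granins chromogranin A (Chga) and chromogranin B (Chgb) and with peptide hormones or serotonin. Etv1 encodes an ETS-family transcription factor of the PEA3 group, which acts downstream of receptor tyrosine kinases and ERK.

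The promoters of the 4 marker genes are shown because Neurog3 and Neurod1 bind E-boxes, and the capitals mark each CAGCTG, 1 form of the E-box CANNTG. Sequences are from RefSeq on GRCm38.p6 (mm10), 250 bases before to 50 bases after the annotated start, written 5′ to 3′ on the strand of the gene. CAGCTG, which reads the same on both strands, and CAGATG, searched on both strands, were counted apart and neither contains the other. The Chga promoter (chr12:102554691-102554990, plus strand) held 2 CAGCTG, with first bases at −179 and −116 from the start. The Chgb promoter (chr2:132781392-132781691, plus strand) held 1, with its first base at 31. The Neurog3 promoter (chr10:62132840-62133139, plus strand) held 1, with its first base at −165. The Neurod1 promoter (chr2:79456587-79456886, minus strand) held none, and CAGATG was in none of the 4 windows. Of 27025 mouse promoters of the same length, 16.1% held CAGCTG, 17.2% CAGATG and 72.1% any CANNTG (3 in Chga, 2 in Chgb, 1 in Neurod1 and 1 in Neurog3, each CAGCTG counted among them), so these are matches of letters only.
Chga: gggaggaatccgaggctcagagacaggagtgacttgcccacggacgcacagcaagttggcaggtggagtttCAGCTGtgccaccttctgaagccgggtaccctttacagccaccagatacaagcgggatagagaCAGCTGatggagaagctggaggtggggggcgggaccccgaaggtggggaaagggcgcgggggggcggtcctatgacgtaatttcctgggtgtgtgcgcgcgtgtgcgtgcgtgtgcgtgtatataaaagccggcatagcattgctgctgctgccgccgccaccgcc
Chgb: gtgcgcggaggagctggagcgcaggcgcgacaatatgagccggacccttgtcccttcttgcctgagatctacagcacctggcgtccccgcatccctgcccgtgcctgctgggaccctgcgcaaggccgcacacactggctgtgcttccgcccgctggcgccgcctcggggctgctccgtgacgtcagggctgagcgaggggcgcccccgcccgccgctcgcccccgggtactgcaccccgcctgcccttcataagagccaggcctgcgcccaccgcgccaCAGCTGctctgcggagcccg
Neurog3: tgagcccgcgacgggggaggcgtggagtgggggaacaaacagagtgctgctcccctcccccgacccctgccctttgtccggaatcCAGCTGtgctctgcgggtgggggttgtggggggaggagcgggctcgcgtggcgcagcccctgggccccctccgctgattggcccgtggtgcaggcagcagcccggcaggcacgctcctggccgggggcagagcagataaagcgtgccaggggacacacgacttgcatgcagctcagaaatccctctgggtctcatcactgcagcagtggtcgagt
Neurod1: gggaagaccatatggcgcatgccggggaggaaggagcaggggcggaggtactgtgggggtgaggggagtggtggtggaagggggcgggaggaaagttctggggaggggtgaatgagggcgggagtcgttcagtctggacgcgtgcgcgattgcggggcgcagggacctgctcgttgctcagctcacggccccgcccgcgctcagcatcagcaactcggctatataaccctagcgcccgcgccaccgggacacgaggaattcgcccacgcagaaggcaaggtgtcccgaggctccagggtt

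The lineage cells were shallower than the others. They held a median of 6467 unique molecular identifiers (UMIs; range 719 to 55197), against 19320 in the other cells. HTODemux gave 61 of them to 1 culture: 17 and 16 to control cultures 1 and 2, and 5, 12 and 11 to mutant cultures 1, 2 and 3. No hashtag was called for 58 (43.6%, exact 95% binomial interval 35.0 to 52.5) and several for 14 (10.5%), against 38.4% and 8.68% of the other cells. The 14 cells with several hashtags carried 1593 CPM (counts scaled to a library total of 1e+06) of the stem cell gene Olfm4, against 443.4 CPM in the cells of 1 culture, and entered no comparison of genotypes. Scrublet marked 4 of the 2725 filtered cells (0.147%) and no lineage cell, too few for the caller to have worked, so doublets within a culture were not removed. Intervals cover counting error only.

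Membership rested on very different amounts of evidence. In 86 cells the 4 markers had at least 10 counts together, with a median depth of 9417 UMIs, and 99 cells had at least 3. The rule admitted 20 cells of 719 to 997 UMIs on a single marker count and 14 more on at most 2 counts, and of these 34 cells 27 had no hashtag call and 6 belonged to 1 culture. Cpe, the carboxypeptidase that trims prohormones and no part of the rule, was present in 1 of the 20 and 3 of the 14 cells. It was present in 26 of 43 cells with over 9 to 49 marker counts and in 41 of 43 with more. Just inside the bound, at 10.03 to 11.8 marker counts per 10000, lay 22 cells with a median of 970.5 UMIs and of 1 marker count (range 1 to 44). Just outside it, at 8.02 to 9.91 per 10000, lay 26 cells with a median of 1209 UMIs and also of 1 marker count (range 1 to 30). The plot of marker counts against depth shows these few-count cells at its lower left.

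**Figure D1:**
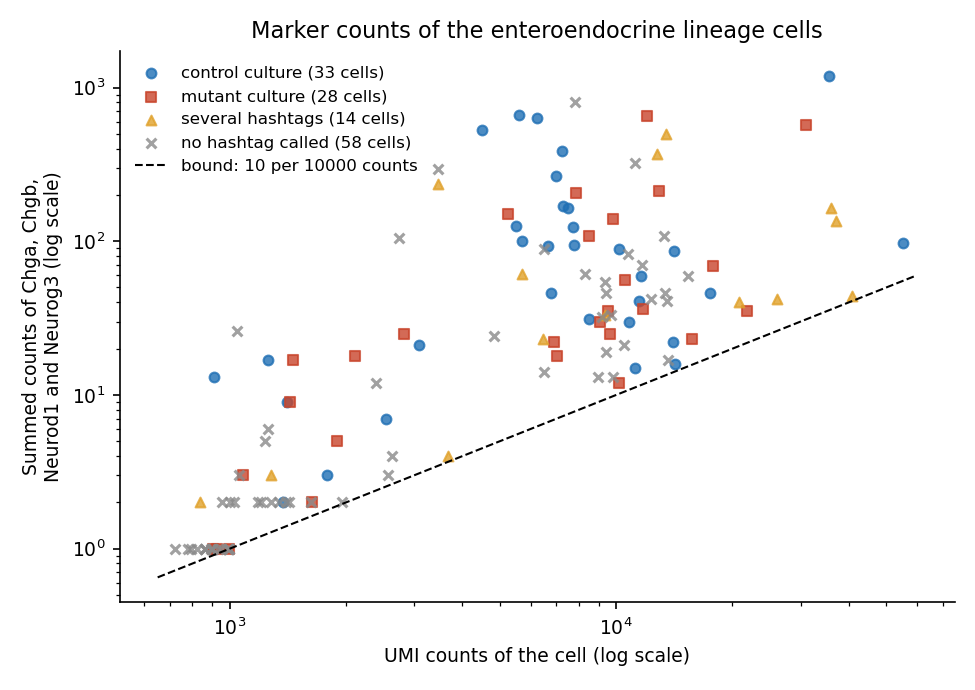
Summed counts of the 4 markers (vertical axis, log scale) against the UMIs of each of the 133 lineage cells (horizontal axis, log scale), marked by genotype or by the lack of a single hashtag call. The 20 cells with a single marker count lie at the lower left, at 719 to 997 UMIs, and 86 cells have at least 10 marker counts.

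The granins were found in most of the cells and Neurog3 in fewer. Chgb (mm10, chr2:132781278-132795079) had 8133 counts in 100 of the 133 cells (75.2%), and Chga (chr12:102554969-102565028) had 2569 counts in 95 cells (71.4%). Neurod1 (chr2:79452521-79456751) had 606 counts in 80 cells (60.2%) and Neurog3 (chr10:62133090-62134763) 521 counts in 51 cells (38.3%). In the other cells, at a median of 19320 against 6467 UMIs, Chgb was counted in 5.79%, Chga in 2.70%, Neurod1 in 0.926% and Neurog3 in 1.81% of cells. With each cell thinned to 1000 UMIs, which left out 24 lineage and 115 other cells, Chgb was counted in 60.6% of lineage and 1.49% of other cells and Neurog3 in 23.9% and 0.283%. All 4 markers were present in 32 cells, 3 in 33, 2 in 31 and 1 in 37.

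Grouped by the marker with the most counts, the cells had a progenitor end, led by Neurog3, and a granule-rich end, led by the granins. Chgb led in 74 cells, Chga in 27, Neurod1 in 12 and Neurog3 in 12, and 8 were tied. Sox4, a factor of secretory progenitors, was present in all 12 Neurog3-led cells at 3222 CPM, against 571.3 CPM in the Chgb-led, 715.2 in the Chga-led and 1067 in the Neurod1-led cells. Insm1, a zinc-finger factor of early endocrine cells, was present in 11 of the 12 (839.1 CPM). It was as high in the Neurod1-led cells (9 of 12, 848.8 CPM), against 338.2 CPM in the Chgb-led and 359.5 in the Chga-led cells. The Notch ligand gene Dll1 was present in 7 of the 12 Neurog3-led cells (142.5 CPM) and in 4 of the 74 Chgb-led cells (9.40 CPM). Gcg, Ghrl, Tph1, Tac1 and Isl1 had no count in the Neurog3-led cells, whose median depth was 10487 UMIs, while Sct was counted in 3 of them, Pyy in 1 (55.4 CPM) and Cck in 1. Pax4, a paired-box factor, was present in 8 of the 12 Neurod1-led cells. The Neurod1-led cells also stood at 10152 CPM of Sct and 10278 CPM of Pyy, with 862 Sct and 895 Pyy counts in 1 of them. The ends overlapped, since 37 of the 48 Neurog3-positive cells with at least 10 marker counts also held a granin.

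The granule-rich cells differed among themselves. Tph1, the enzyme that starts serotonin synthesis, was present in 24 cells, 22 of them led by Chgb. Tac1, the gene of substance P, was present in 15 cells, all led by Chgb and all with Tph1, so that the overlap was 62.5% of the Tph1 cells and 100% of the Tac1 cells. Fev, a transcription factor of serotonin-producing cells, was present in 34 of 74 Chgb-led and 6 of 27 Chga-led cells. The LIM-homeobox factor Isl1 was present in 3 of the 74 Chgb-led and 13 of the 27 Chga-led cells. Of 11 cells with ghrelin (Ghrl) counts, 7 were led by Chga. Only 4 of the 11 had at least 3 Ghrl counts, and these 4 were led by Chga.

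**Figure D2:**
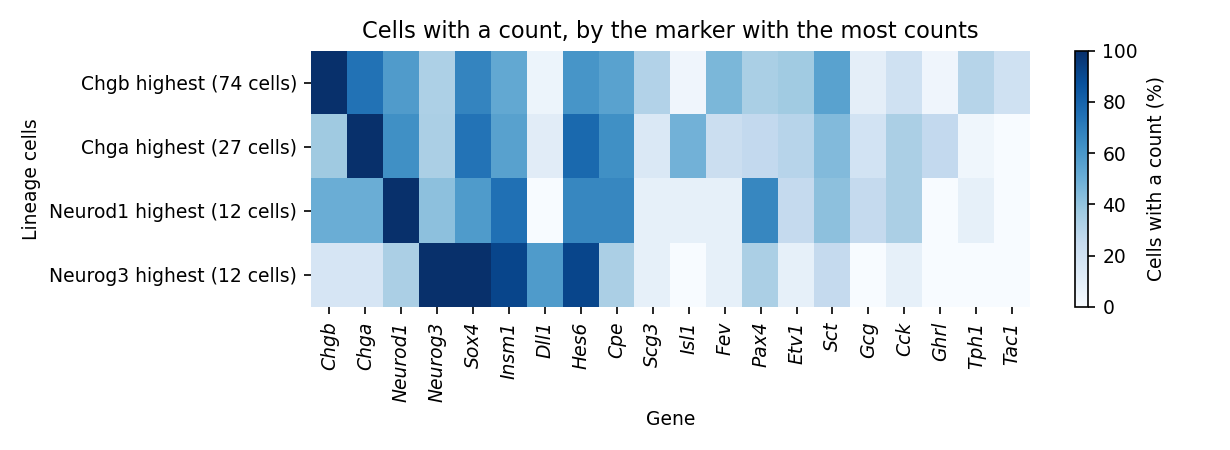
Share of cells with a count (colour, percent) of 20 genes (columns) in the lineage cells grouped by the marker with the most counts (rows: Chgb 74 cells, Chga 27, Neurod1 12, Neurog3 12). Sox4 and Dll1 stand out in the Neurog3-led cells (12 and 7 of 12), Tph1 in the Chgb-led cells (22 of 74) and Isl1 in the Chga-led cells (13 of 27). Insm1 is in most Neurog3-led and Neurod1-led cells (11 and 9 of 12).

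The genes whose log counts per 10000 followed Neurog3 most closely over the 133 cells were Sox4 (Pearson r = 0.58), Insm1 (0.58), Fgd2 (0.55), Vps72 (0.53) and Marcksl1 (0.53). For Chga they were Selenom (r = 0.55), Chgb (0.52), the vesicular monoamine transporter Slc18a1 (0.51), Cpe (0.50) and the vesicle GTPase Rab3c (0.50). Over the 86 cells with at least 10 marker counts the closest to Neurog3 were Sox4 (0.63), Cdk4 (0.61), Insm1 (0.56), Ptma (0.52) and Mtch1 (0.52), so Sox4 and Insm1 were in both sets and Fgd2, Vps72 and Marcksl1 were not. To Chga the closest over the 86 were Chgb (0.68), Rab3c (0.55), Slc18a1 (0.49), Scn3a (0.48) and Lgals3bp (0.48). Neurog3 against Chga gave r = −0.11 over the 133 cells and −0.43 over the 86. The cells share 1 pool and differ in depth, and the rule used both genes.

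Hormone transcripts were concentrated in few cells. Of 19 peptide hormone genes, 12 had a count, while Gip, Sst, Vip, Cartpt, Nmb, Npw and Penk had none. Gcg (proglucagon) had 6733 counts in 17 cells, Cck (cholecystokinin) 7154 in 31, and Pyy (peptide YY, a satiety hormone of the distal gut) 2497 in 18. Nts (neurotensin) had 2558 counts in 3 cells, all of which held Gcg, and Ghrl had 2985 counts in 11 cells. Sct (secretin) was the most widespread, with 4266 counts in 63 cells (47.4%, against 14.6% of the other cells; 33.9% against 3.31% after thinning). Tac1 had 173 counts, and Iapp (amylin) had 59 counts in 21 cells. Insl5 had 7 counts in 1 cell, Adm 9 in 3, Gal 4 in 4 and Ucn3 3 in 3.

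The richest cell held 77.5% of the Ghrl counts, 68.3% of those of Nts, 53.4% of Cck, 37.1% of Pyy, 24.6% of Gcg, 21.6% of Sct and 19.1% of Tac1. Counts of abundant hormones were also found in cells outside the lineage, for Gcg and Cck in 166 cells each (6.4%) and for Pyy in 131 (5.05%), at the greater depth given above. Of the 17 Gcg-positive lineage cells, 8 had at least 3 counts, so a count of 1 or 2 in a lineage cell is not read as expression.

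In 12 lineage cells at least 1 of Gcg, Pyy, Nts, Cck, Sct and Ghrl reached 100 counts, a bound chosen after the values were seen. The deepest, of control culture 2 (55197 UMIs), held 943 Gcg and 3822 Cck counts and no Pyy. A cell of control culture 1 held 651 Gcg, 927 Pyy, 1746 Nts and 478 Cck counts, and the 6 genes made up 22.3% of its UMIs. A second cell of control culture 2 held 1184 Gcg, 895 Pyy and 862 Sct counts. Both control cultures thus had a cell rich in Gcg and Pyy together. A cell of mutant culture 2 held 1655 Gcg and 1485 Cck counts beside 1 Pyy count. A cell of mutant culture 3 held 519 Gcg and 180 Ghrl counts beside 1 Pyy count. A cell of mutant culture 1 held 903 Cck counts and neither Gcg nor Pyy. Of the 7 cells with at least 100 Gcg counts, 4 also reached 100 Pyy counts: the 2 control cells and 2 cells without a hashtag call, with 110 Pyy counts beside 1450 of Gcg in 1 of them and 521 Pyy counts in the other. Ghrl led in a further cell of control culture 2 (2312 counts) and in a cell without a call (482 counts), and each of them held 37 Sct counts.

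**Figure D3:**
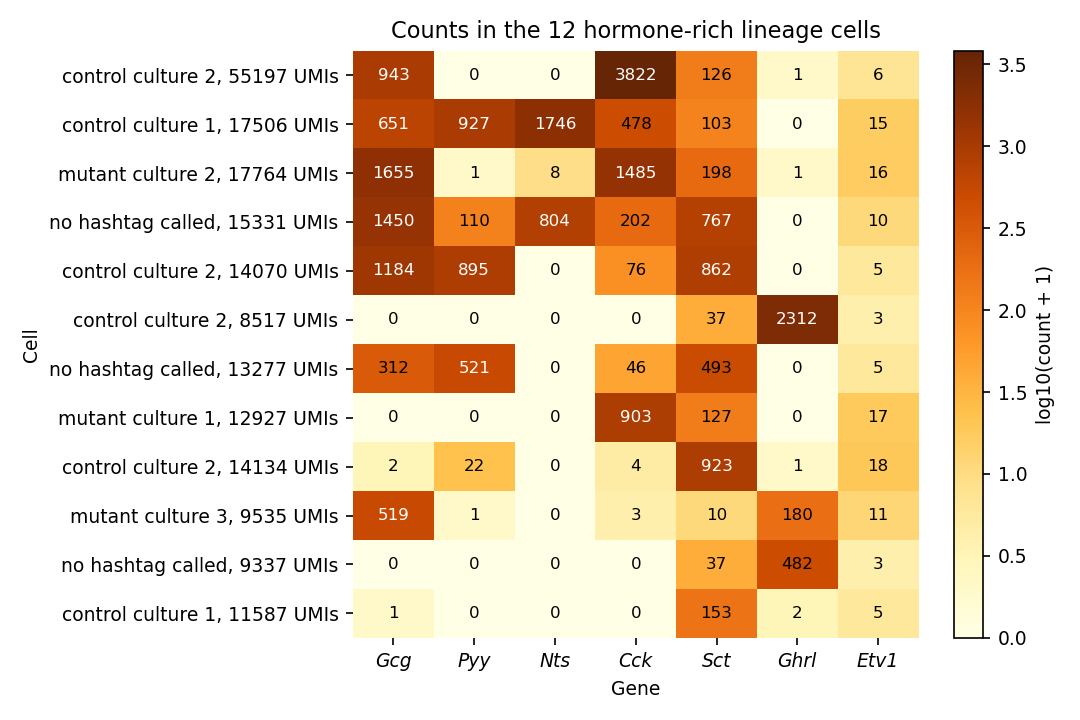
Counts (printed; colour is log10 of the count plus 1) of hormone genes and Etv1 (columns) in the 12 hormone-rich lineage cells (rows, with culture and UMIs). Gcg and Pyy are both at 100 or more in 4 cells, 2 of control cultures and 2 without a hashtag call, and each of the 12 cells holds 3 to 18 Etv1 counts.

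Etv1, the gene named in the mutant label, was a gene of the lineage in these organoids and lay mostly in the hormone-rich cells. Etv1 (mm10, chr12:38779380-38870484, plus strand) had 189 counts in 40 of the 133 lineage cells (30.1%), against 25 counts in 12 of the 2592 other cells (0.463%), with 15.6% against 0.0404% after thinning. All 12 hormone-rich cells held it, with 114 of the 189 counts (572.3 CPM). Of the 24 cells with Tph1, 7 held it (68.3 CPM), and of the 12 Neurog3-led cells 1 did (39.6 CPM). The hormone-rich cells were deeper, with a median of 13673.5 UMIs against 5971 in the Tph1 cells and 10487 in the Neurog3-led cells, and the part of depth in the shares was not tested. Of the 40 cells with Etv1, 31 held Sct (77.5% of the Etv1 cells and 49.2% of the Sct cells). Any count is taken here, and 42 of the 63 Sct cells had at least 3 Sct counts. Of 13 listed PEA3 and ERK feedback genes, Etv1 among them, 8 lay above the other cells (median log2 ratio 0.36). This was near the 58.4% (median 0.24) of all genes with a count in any filtered cell. The phosphatase gene Dusp4 stood at 63.7 against 11.8 CPM, Phlda1 of the same list at 183.4 against 278.9 CPM, and Etv4, a PEA3 factor, at 23.2 against 20.7 CPM.

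Beside the other cells of the pool, genes of the endocrine secretory machinery were higher in the lineage cells. Of 8733 genes with at least 10 counts in lineage cells, 694 (7.95%) were at least 4-fold higher there and 44 (0.504%) at least 4-fold lower. A minimum of counts in lineage cells favours genes that are high there and the rule used this contrast, so nothing is read from these shares, and lists are given over all their members. Over the 15729 genes with a count in any filtered cell, 58.4% had a log2 ratio above zero (CPM plus 1) and the median was 0.24. Of 31 secretory granule and exocytosis genes, Chga and Chgb of the rule among them, 30 lay above zero (median log2 ratio 4.90). Cpe stood at 450.8 against 1.19 CPM, the calcium-binding protein gene Scgn at 226.9 against 0.563 CPM and Pcsk1n, which encodes an inhibitor of a prohormone convertase, at 206.6 against 0.503 CPM. Of 26 endocrine transcription factors, Neurod1 and Neurog3 of the rule among them, 25 lay above zero (median 4.52), with Fev at 141.9 against 0.201 CPM and Runx1t1, a corepressor, at 112.9 against 0.362 CPM. Of 17 progenitor genes, Neurog3 among them, 15 lay above zero (median 2.10), of 19 hormone genes 12 (median 2.28) and of 12 enterochromaffin and serotonin genes 9 (median 3.27).

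Some nutrient receptors and some genes best known from neurons were part of the pattern. Of 11 nutrient-sensing genes 7 lay above zero (median log2 ratio 2.20), with the fatty acid receptors Ffar1 at 32.8 against 0.161 CPM and Ffar2 at 84.9 against 2.57 CPM, and the bile acid receptor Gpbar1 at 46.3 against 0.161 CPM. Slc5a1 of the same list was nearly level (113.9 against 99.4 CPM), and Casr, Cckar and Kcnj11 had no count in lineage cells. Olfm1, which encodes a secreted glycoprotein, had a log2 ratio of 7.17, the microtubule protein gene Map1b at 168.0 against 0.282 CPM and the neurofilament gene Nefm at 128.4 against 0.402 CPM. The sodium channel gene Scn3a stood at 100.4 CPM and had no count in the other cells. Olfm1, Map1b, Nefm and Scn3a were higher in the lineage cells of 5 of 5 cultures. They were named for their large ratios in these same cells, so the cultures give no separate support. Of 8 neuronal and glial markers 5 lay above zero, Elavl4 at 28.0 against 0.0402 CPM and Ret at 27.0 against 1.19 CPM, and Gfap and Sox10 had no count.

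Lists of markers of other cell types had smaller median ratios or lay lower, although single genes such as Vim departed from this. Cycling genes had a median log2 ratio of −1.69, with 0 of 10 above zero, and stem genes one of −0.66, with 1 of 8 above zero. Goblet genes had a median of −0.43 (4 of 9 above zero) and immediate early genes one of 1.33 (8 of 8). Olfm4 stood at 638.1 against 1444 CPM. Of 12 enterocyte genes 4 lay above zero (median −1.09), with the peptidase gene Anpep at 65.6 against 14.3 CPM and the apolipoprotein gene Apoa1 at 93.6 against 446.4 CPM. Of the tuft list 6 of 9 genes had no count. Ptprc, Cd3e, Cd79a, Cd74 and Tyrobp, markers of immune cells, were at 0, as were the mesenchymal genes Col1a1, Col3a1, Dcn, Lum and Pdgfra. Vim, the sixth gene of that list, had 106 counts in 12 cells and stood at 102.3 against 0.603 CPM (log2 ratio 6.01). Rarer genes were not ranked. Among genes found in at least 20% of lineage cells with at least 10 counts there, 2 were lowest beside the other cells. They were the metallothionein gene Mt4 (40.5 against 735.0 CPM) and Reg3g, an antimicrobial lectin gene (67.6 against 707.2 CPM).

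A defensin gene departed from the other Paneth cell genes. Defa30 stood at 3423 CPM in lineage and 288.5 CPM in other cells, whereas the Paneth list of 10 genes had a median log2 ratio of 0.34 (6 above zero), lysozyme (Lyz1) stood at 472.5 against 371.8 CPM and Defa17 at 175.0 against 779.9 CPM. Defa30 was present in 90 lineage cells (67.7%, 46.8% after thinning) and in 51.1% of the others (15.2% after thinning). At least 50 counts were found in 24 lineage cells (18.0%) and in 26 other cells (1.0%), although the other cells were deeper. By culture it stood at 4380 and 5169 CPM in control and at 2945, 7522 and 2215 CPM in mutant lineage cells, above the other cells in 5 of 5 cultures. Defensin genes are near-identical copies and the counts of Defa30 are partly fractions, so the assignment of reads to this copy is uncertain. The gene was singled out after its values were seen.

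Lineage cells were 5.26% and 4.58% of the filtered cells of control cultures 1 and 2, and 1.77%, 4.27% and 5.58% of those of mutant cultures 1, 2 and 3. The ranges overlapped, with mutant culture 1 lowest (5 of 282 cells, exact 95% binomial interval 0.578 to 4.09%) and mutant culture 3 highest. The means were 4.92% ± 0.480 (SD, n = 2) and 3.88% ± 1.94 (SD, n = 3), a difference of −1.05 percentage points (two-sided exact permutation test over 10 splits, p = 0.7, smallest possible p 0.1). Without mutant culture 1 the difference was 0.00327 points. Counted on cells with at least 10 marker counts, the shares were 4.95% and 3.44% in control and 1.77%, 3.20% and 3.55% in mutant cultures (exact permutation p = 0.3).

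Neurog3-led cells made up 0 of 17 and 2 of 16 lineage cells in controls and 1 of 5, 0 of 12 and 1 of 11 in mutants, while 8 of the 12 had no hashtag call. The means were 6.25% ± 8.84 (SD, n = 2) and 9.70% ± 10.01 (SD, n = 3), a difference of 3.45 points (two-sided exact permutation p = 0.8). The sign turned without control culture 1 (−2.80), without mutant culture 1 (−1.70), at a bound of 20 per 10000 (−5), with MULTIseqDemux (−12.6) and with a HTODemux quantile of 0.95 (−2.07). With 0 to 2 such cells in a culture, a difference was not detectable at this depth. Membership and the lead marker were both taken from the counts of the same marker genes. The share of Neurog3-led cells therefore depends on the rule, and its p-value is no test independent of that selection.

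**Figure D4:**
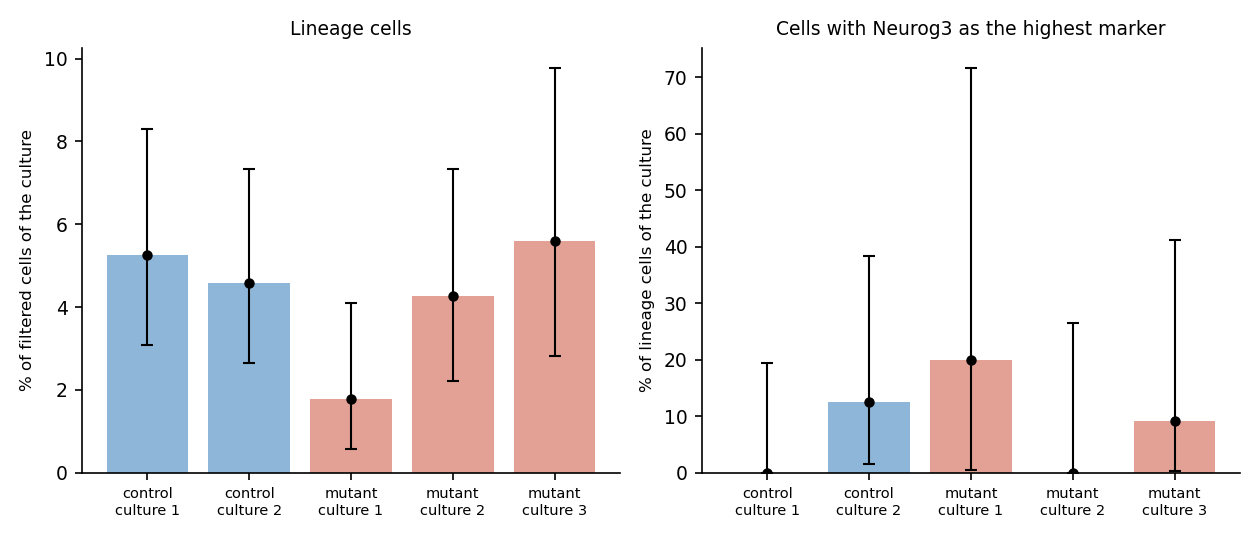
Share of lineage cells among the filtered cells of each culture, and share of Neurog3-led cells among its lineage cells (vertical axes, percent; bars and points are the shares, whiskers exact 95% binomial intervals). Mutant culture 1 has the lowest share of lineage cells, 1.77%, and mutant culture 3 the highest, 5.58%.

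Expression in lineage cells was compared between genotypes on counts summed per culture, of 66261 to 158275 UMIs. In such sums fewer cells of a type and less RNA per cell cannot be told apart, and the richest cell held 23.0 to 46.8% of its culture's sum. Etv1 stood at 277.8 and 278.0 CPM in control cultures 1 and 2 and at 256.7, 259.4 and 139.8 CPM in mutant cultures 1, 2 and 3. All 3 mutant cultures lay below the controls, 2 of them narrowly. The log2 fold change, mutant over control here and below, was −0.38 (SE 0.33; edgeR quasi-likelihood test, Benjamini-Hochberg adjusted p = 0.985). Whether the counted reads lie inside the altered part of Etv1 is not stated in the labels, so this level does not check the labels.

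The cells with an Etv1 count were 8 of 17 and 9 of 16 in controls and 1 of 5, 4 of 12 and 2 of 11 in mutants. Among cells with at least 10 marker counts the shares were 50% and 66.7% in control and 20%, 44.4% and 14.3% in mutant cultures, without overlap. In summed CPM the groups did not overlap in 18.7% of the 1790 genes tested, and overlap of shares of cells was not counted over all genes. Outside the cell richest in Etv1, 28 and 26 counts remained in controls and 0, 3 and 2 in mutants. Mutant culture 1 had only 1 cell with Etv1, which fixes its 0, and mutant culture 3 had 2. The spread over cells was looked at after the values were seen and was not tested.

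Of 1790 genes tested, Pyy alone passed an adjusted p of 0.05 (0.0559%). Pyy (mm10, chr11:102106676-102107832, minus strand) had 929 and 925 counts in controls (6002 and 5845 CPM) and 0, 3 and 1 in mutants (0, 41.0 and 10.8 CPM). Every mutant culture lay far below both controls. The log2 fold change was −8.35 (SE 0.56; edgeR adjusted p = 2.06e-04), a fitted size that depends on the prior count. In each control culture 1 cell held nearly all of it, 927 of 929 and 895 of 925 counts, the cells rich in both Gcg and Pyy described above. With the richest Pyy cell of every culture left out no gene passed, Pyy fell under the filter on low counts, and 2 and 30 of its counts remained in the control against 0, 1 and 0 in the mutant cultures. At a bound of 20 per 10000, which the rich cell of control culture 2 (15.6) does not reach, the edgeR adjusted p of Pyy was 0.272. The Pyy result therefore rests on 1 cell in each control culture, among 33 control and 28 mutant cells.

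Few other genes came near the threshold, in a fit that called 8.33% of genes simulated with a log2 change of 2. Before adjustment, 31 genes lay above and 36 below zero at p under 0.05, DESeq2 called Pyy alone, and the groups did not overlap in 335 of the 1790 genes (18.7%). The smallest p values above zero belonged to Cd164, a sialomucin gene (log2 fold change 1.82, SE 0.41), Ly6e (1.80, SE 0.41), the translation termination factor gene Gspt1 (1.31, SE 0.30), Sis (1.24, SE 0.29) and the ribonuclease gene Rnase4 (0.98, SE 0.25), with edgeR adjusted p of 0.696 for the first 4 and 0.791 for Rnase4. Ly6e stood at 96.9 and 50.6 CPM in control and at 347.3, 218.4 and 225.8 CPM in mutant cultures. Sis, the sucrase-isomaltase of enterocytes, stood at 452.3 and 252.8 CPM in control and at 845.6, 832.8 and 827.8 CPM in mutant cultures. Below zero and next to Pyy was Rnf32, at 245.5 and 246.4 CPM in control and 105.7, 41.0 and 64.5 CPM in mutant cultures (−1.83, SE 0.38, edgeR adjusted p = 0.696).

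Hormone genes other than Pyy varied widely within each genotype. Of 7 tested hormone genes, Pyy included, 6 lay below zero (median log2 fold change −2.04, against 0.02 over all genes tested). Gcg stood at 4212 and 13453 CPM in control and at 0, 22593 and 5590 CPM in mutant cultures, whose range enclosed the controls (0.04, SE 1.49, edgeR adjusted p = 0.999). Cck stood at 3405 and 24657 CPM in control and at 13636, 20300 and 32.3 CPM in mutant cultures (−0.36, SE 1.44, edgeR adjusted p = 0.994). Secretin (Sct) stood at 2113 and 12916 CPM in control and at 2054, 3317 and 322.5 CPM in mutant cultures (−2.04, SE 0.87, edgeR adjusted p = 0.985), with an overlap. Outside its richest cell in each culture, Cck had 49 and 80 counts in control and 0, 2 and 0 in mutant cultures, and mutant cultures 1 and 3 had only 1 cell with Cck each, which fixes their 0.

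Granule genes lay mostly below zero, and none passed. In the secretory granule and exocytosis list, which holds Chga and Chgb, 15 of 16 tested genes were below zero (median −0.38, against 0.02 over all genes tested). The groups did not overlap in 4 of the 16, beside 18.7% of all genes tested. Scgn (mm10, chr13:23953456-23991214) stood at 303.7 and 473.9 CPM in control and at 135.9, 191.1 and 129.0 CPM in mutant cultures (−1.38, SE 0.34, edgeR adjusted p = 0.765). It was present in 7 of 17 and 8 of 16 control cells and in 1 of 5, 3 of 12 and 1 of 11 mutant cells. Without its richest cell in each culture, 31 and 50 counts remained in control and 0, 2 and 0 in mutant cultures, of which cultures 1 and 3 had 1 cell with Scgn each. Scg3, a granin of the granule membrane, stood at 116.3 and 132.7 CPM in control and at 30.2, 41.0 and 32.3 CPM in mutant cultures, from 18, 21, 2, 3 and 3 counts (−1.84, SE 0.52, edgeR adjusted p = 0.834). Pcsk1n stood at 426.4 and 410.7 CPM in control and at 181.2, 0 and 118.3 CPM in mutant cultures (−2.08, SE 0.64, edgeR adjusted p = 0.867). Scgn, Scg3 and Pcsk1n are among the 4 without overlap. Chgb, which the rule used, stood at 21585 and 3735 CPM in control and at 11174, 7577 and 2247 CPM in mutant cultures, and Chga at 4968 and 1409 CPM and at 2537, 3959 and 2064 CPM.

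Progenitor genes lay on both sides of zero and enterochromaffin genes below it, and none passed. Neurog3 stood at 206.7 and 341.2 CPM in control and at 528.5, 395.9 and 881.6 CPM in mutant cultures (1.13, SE 0.40, edgeR adjusted p = 0.985). Its groups did not overlap, as in 18.7% of all genes tested. Of 9 tested progenitor genes 6 were above zero (median 0.21), as were 6 of 8 transcription factors (median 0.42), and both lists hold Neurog3, which the rule used. Of 7 tested enterochromaffin and serotonin genes all 7 were below zero (median −0.17). Tph1 stood at 555.6 and 56.9 CPM in control and at 45.3, 0 and 139.8 CPM in mutant cultures, which overlapped (−2.16, SE 0.99, edgeR adjusted p = 0.985).

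Genes listed for other cell types also varied between the summed lineage cells. The Paneth list summed to 4869 and 6149 CPM in control and to 3691, 10221 and 3340 CPM in mutant cultures, and 5 of 7 tested members were above zero. Most of each sum was Defa30 (4380 and 5169 CPM in control, 2945, 7522 and 2215 CPM in mutant cultures). Defa30 and Vim were higher in lineage than in other cells, so their counts are not read as RNA of another cell type. The enterocyte list summed to 833.2 and 2837 CPM in control and to 6444, 5989 and 1902 CPM in mutant cultures, with 3 of 3 tested members above zero. Stem genes summed to 652.3 and 1049 CPM in control and to 981.0, 658.3 and 1832 CPM in mutant cultures. Of the mesenchymal list Vim alone was counted, at 232.6 and 113.7 CPM in control and 60.4, 0 and 0 CPM in mutant cultures. The part of RNA from other cell types in the genotype values was not tested.

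**Figure D5:**
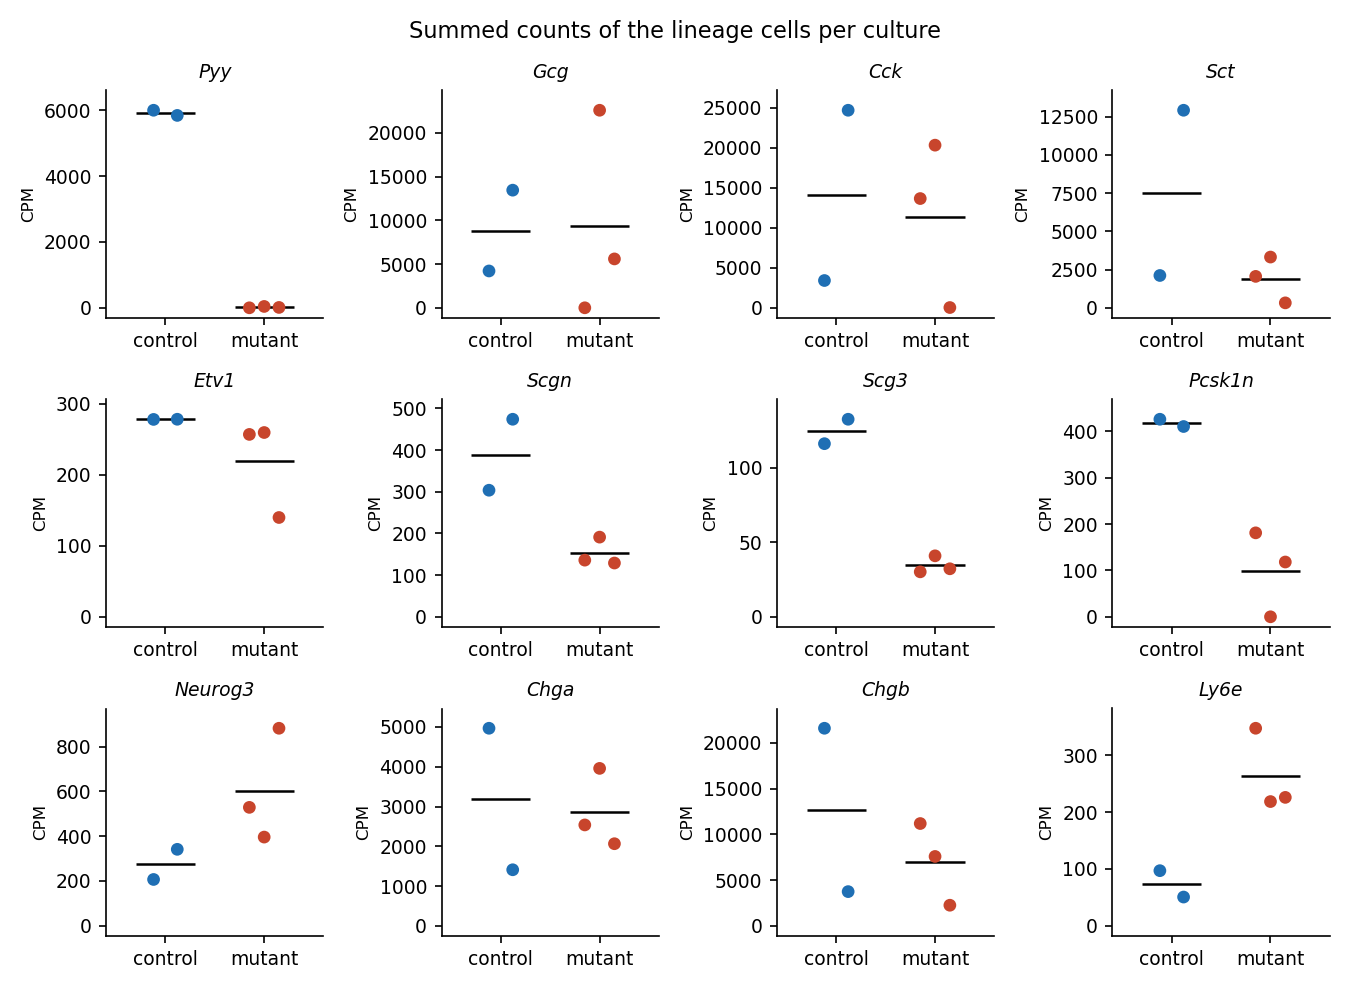
CPM (vertical axes) of Pyy, Gcg, Cck, Sct, Etv1, Scgn, Scg3, Pcsk1n, Neurog3, Chga, Chgb and Ly6e in the summed lineage cells of each culture (points: 2 control and 3 mutant cultures; horizontal lines: group means). Pyy lies at 6002 and 5845 CPM in control and at 0, 41.0 and 10.8 CPM in mutant cultures, and for Gcg the mutant cultures (0 to 22593 CPM) enclose the controls.

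Whether the genotype difference in lineage cells departed from that in the other cells of the same cultures was tested with a genotype by lineage term, with the culture as a block. Of 6767 genes, 4 passed in edgeR (0.0591%), and at an unadjusted p under 0.05 the term was above zero for 140 and below zero for 196. Pyy (−8.55, SE 0.64, edgeR adjusted p = 8.78e-10) and Nts (−8.41, SE 1.15, edgeR adjusted p = 2.51e-04) had a lower term. For Nts a single cell of control culture 1 made up the 11280 CPM of that culture, control culture 2 had none, and the mutant cultures had 0, 109.2 and 0 CPM. In the other cells Pyy stood at 1.41 to 3.17 CPM and Nts at 0 to 2.20 CPM. Clps, the gene of the lipase cofactor colipase, had a higher term (2.93, SE 0.59, edgeR adjusted p = 0.0469). Its lineage values were 155.1 and 31.6 CPM in control and 453.0, 273.0 and 64.5 CPM in mutant cultures, which overlapped. In the other cells Clps stood at 53.9 and 77.2 CPM in control and at 20.4, 33.4 and 14.1 CPM in mutant cultures. These lower mutant values also entered the term. Defa22, a defensin gene with near-identical copies, had a higher term (6.65, SE 1.17, edgeR adjusted p = 0.00922), and its lineage value was 709.9 CPM in mutant culture 2 and 10.8 to 25.3 CPM in the other 4 cultures. In the other cells Defa22 stood at 148.2 CPM in control culture 1 and at 4.88 to 9.73 CPM elsewhere. Leaving out mutant culture 2 or mutant culture 3 left 1 gene that passed, and leaving out control culture 2 gave 14.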

How the data were processed

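Cells of 5 cultures were sorted, hashtagged and pooled, per the labels' protocols. The authors deposited hashtag counts (whole numbers) and a table of expected counts (estimated, unnormalized counts per gene; 95.6% of values above 0 are whole) for 22253 genes, 6446 of them without a count, over 3409 shared barcodes. The submitters' processing notes name mm10, Seurat 4.3.0, alevin, Salmon 1.4.0, and Cell Ranger 6.1.0, and their settings are not given in the sources used here. Of the barcodes, 684 failed the filter (237 by genes, 547 by mitochondrial counts, some by both). Hashtags were called with HTODemux (Seurat 5.3.0, quantile 0.99).

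The members, gene lists and comparisons were chosen with earlier results of these data known. Expected counts were summed per culture, rounded to whole numbers and tested with edgeR 4.0.16 in R 4.3.3 (TMM, filterByExpr, quasi-likelihood, Benjamini-Hochberg, threshold 0.05), which was tested on simulated data. It called 8.33% of 72 genes simulated with a log2 change of 2 and 82.1% of 67 with one of 4. The simulation gave every gene the same dispersion and put no counts into single cells. Genes that did not pass are therefore not read as unchanged. The genotype by lineage term used genes that also had at least 10 counts in lineage cells. DESeq2 1.42.0 was an alternative. Other values came from Python 3.11.15 (numpy 2.4.6, scipy 1.17.1, scanpy 1.11.5). P-values measure the spread between these cultures. The rule for named genes took the 4 markers, Etv1, hormones with a count, up to 5 genes of each list by CPM, the 20 largest ratios to other cells among genes in at least 20% of lineage cells, genes that passed or else the 5 smallest p in a direction, and the 5 genes best correlated with Neurog3 and with Chga, of which the text gives examples. Scg3, Rnf32, Etv4, Mt4, Reg3g, Anpep and the genes compared between lead markers were named after their values were seen. Alternatives were other bounds, cell filters, hashtag calls, scalings and gene filters, and each culture or richest cell left out.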

Additional observations from a re-analysis of the deposited data

Results flagged for a closer look

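For 4 genes the genotype difference in lineage cells departed from that in the other cells, by the genotype by lineage term in edgeR (log2 scale): Pyy (−8.55), Nts (−8.41), Defa22 (6.65) and Clps (2.93). In lineage cells 1 cell of each control culture held 927 of 929 and 895 of 925 Pyy counts, and 1 cell of control culture 1 held all 1746 Nts counts of the controls. Defa22 stood at 709.9 CPM in the lineage cells of mutant culture 2 and at 10.8 to 25.3 CPM in those of the other 4 cultures. In the other cells Defa22 stood at 148.2 CPM in control culture 1. Clps was lower in the other cells of mutant cultures (14.1 to 33.4 CPM) than in those of control cultures (53.9 and 77.2 CPM). The terms were not refitted without single cells.

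Among the 684 barcodes that failed the cell filter, 27 reached the bound of 10 marker counts per 10000 although they entered no comparison, and 2 of them had at least 10 marker counts.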

How the results depend on the processing

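Sums of 5 to 17 cells per culture and 2 against 3 cultures limit every genotype value. No paired analysis was possible because the labels give the cultures no replicate numbers that the genotypes share. Between genotypes 1 gene passed, against 0 at a bound of 20 and with the richest Pyy cell of every culture left out, 2 with MULTIseqDemux (Pyy and Vim, −4.10, edgeR adjusted p = 0.0354), 24 without a filter on low counts (4 higher, 20 lower) and 1 to 2 with a culture left out. Without control culture 2, where the lone control is assumed to vary like the mutant cultures, Nts passed beside Pyy (−8.28, edgeR adjusted p = 4.18e-04). Pyy passed in 16 of the 17 alternatives that gave it a value (−9.95 to −7.22), not at a bound of 20, and with its richest cells left out it fell under the filter and was not called. For the genotype by lineage term 4 genes passed, against 23 without a filter (17 higher, 6 lower), 2 without TMM, 3 with at least 3 or at least 10 marker counts (chosen after seeing the data), and 1 to 14 with a culture left out (14 without control culture 2, 7 without mutant culture 1, 1 without mutant culture 2 or 3). The cause was not tested.

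The difference in the share of lineage cells lay between −1.94 and 0.00327 points over 13 alternatives, and between −1.90 and 0.00327 with a culture left out. That in Neurog3-led cells was −5 at a bound of 20, −12.6 with MULTIseqDemux, −2.07 at a quantile of 0.95 and −2.80 to 9.70 with a culture left out. Genes at least 4-fold higher in lineage cells numbered 694, against 767 with the cells of 1 culture only, 827 at a bound of 20 and 708 with at least 10 marker counts.

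Of 381 values of 22 genes under the alternatives, 348 kept direction and side of the threshold, 12 passed newly (Cck and Scgn among them after their own richest cells were left out, which sets cultures with 1 such cell to 0), 1 no longer passed (Pyy at a bound of 20, beside the loss without its richest cells, which has no value) and 20 reversed, in 7 genes that had not passed. Reversed log2 fold changes were for Cck 2.69 at a bound of 20, 1.42 with MULTIseqDemux and 1.70 at a quantile of 0.95, for Chga 0.48 and 0.36 and for Gcg −1.46 and −0.85 under these calls, for Chgb 0.024 with MULTIseqDemux, and for Gcg −0.076 at a bound of 5 and −0.10 without a filter. With a culture left out the ranges were −1.22 to 1.71 for Cck, −0.80 to 0.94 for Chga, −1.63 to 0.82 for Chgb, −1.65 to 1.15 for Gcg, −4.48 to 5.61 for Ghrl, −0.17 to 0.67 for Neurod1 and −3.02 to 0.13 for Tph1. The cause was not tested.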

Other observations

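A single cell outside the lineage cells had at least 100 counts of any of the 6 hormone genes. It carried several hashtags and 44223 UMIs, with 779 Gcg, 237 Cck, 84 Sct, 45 Pyy and 13 Etv1 counts, and its 35 marker counts came to 7.91 per 10000, below the bound of 10.

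The 58 lineage cells without a hashtag call had a median of 1525.5 UMIs, against 7264 in the 61 cells of 1 culture. They carried 921.8 against 425.1 CPM of Neurog3, 1137 against 188.7 CPM of Lyz1 and 73.4 against 203.4 CPM of Tph1. For Lyz1 a single cell without a call held 237 counts, the most of any lineage cell and most of those in the 58 cells.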
